A study of Mus with 12 samples.

Results

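Blood vessel genes were followed across 12 mouse liver tumours through 10 genes chosen by name as markers of endothelium or as angiogenic factors and their receptors. The panel measured 770 genes, and all 10 were among them. They comprised Cdh5, Pecam1, Robo4 and Clec14a, which are surface proteins of endothelial cells, Kdr, Flt1 and Tie1, which are endothelial receptors, and Vegfa, Angpt1 and Angpt2, which are secreted ligands. Cdh5, Pecam1 and Flt1 were measured above all 3 control tumours in every one of the 9 antibody-treated tumours, as were 8.05% of all genes. Cdh5 was 1.11 to 1.28 higher on the log2 scale in the 3 antibody groups. No gene of the 10 passed the adjusted threshold in any of the comparisons the design set out.

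The tumours were hepatocellular carcinomas driven by MYC, and they were taken from mice given control IgG, an antibody to PDL1, an antibody to CTLA4, or both antibodies together, with 3 mice in each of the 4 groups. PDL1 is a ligand of an inhibitory receptor of T cells, and CTLA4 is an inhibitory receptor of T cells. Total RNA came from formalin-fixed, paraffin-embedded tumour and was read on the mouse IO360 panel of the nCounter platform, in which barcoded probes hybridised to each transcript are counted one by one. Strain, sex, age, antibody clone, dose, schedule and the way the tumours were raised are not stated in the labels, so what limits each group as a model cannot be stated beyond this. The IgG group was the reference for all antibody groups and carried the same MYC-driven tumour.

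Vascular endothelial growth factor A, the product of Vegfa, is made by tumour cells, hepatocytes and macrophages, often under low oxygen, and acts on endothelial cells through the receptor encoded by Kdr, while the receptor encoded by Flt1 binds it more tightly and signals less. Angiopoietin 1, from Angpt1, activates the receptor Tek and steadies vessels, whereas angiopoietin 2, from Angpt2, is released by activated endothelium and can oppose it, and Tie1 is a co-receptor of that pathway. Liver is lined by a specialised sinusoidal endothelium, and hepatocellular carcinoma is known as a tumour rich in vessels.

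Values were normalized counts as deposited, with a floor of 20. All 10 genes lay above the floor, and above the highest negative control probe of the same library, in all 12 libraries. Recovered raw counts behind the member values ran from 30 for Angpt1 to 1530 for Vegfa, so that Angpt1 carried the largest counting error of the 10. Totals per library ran from 439149 to 864464 recovered counts. In RNA from whole tumour, fewer cells of a type and less RNA per cell cannot be told apart, and levels of different genes are not compared here because each probe counts with its own efficiency. The labels call each sample a mouse, and p-values measure the spread between these mice.

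4 libraries stood apart from the other 8, and they were anti-PDL1 mouse 2, anti-CTLA4 mouse 2, anti-CTLA4 mouse 1 and combination mouse 2. Their hepatocyte scores, the mean log2 value of the 6 hepatocyte genes on the panel, were 14.55, 14.51, 13.68 and 13.18, against 10.62 to 12.24 in the others. The same 4 libraries had the largest normalization factors, 1.79 to 2.62 against at most 1.23 elsewhere. Their proliferation scores, over 12 cell cycle genes, ran from 5.89 to 9.12, below the 9.37 to 9.86 of the other 8 libraries. None of the 4 was an IgG library.

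**Figure D1:**
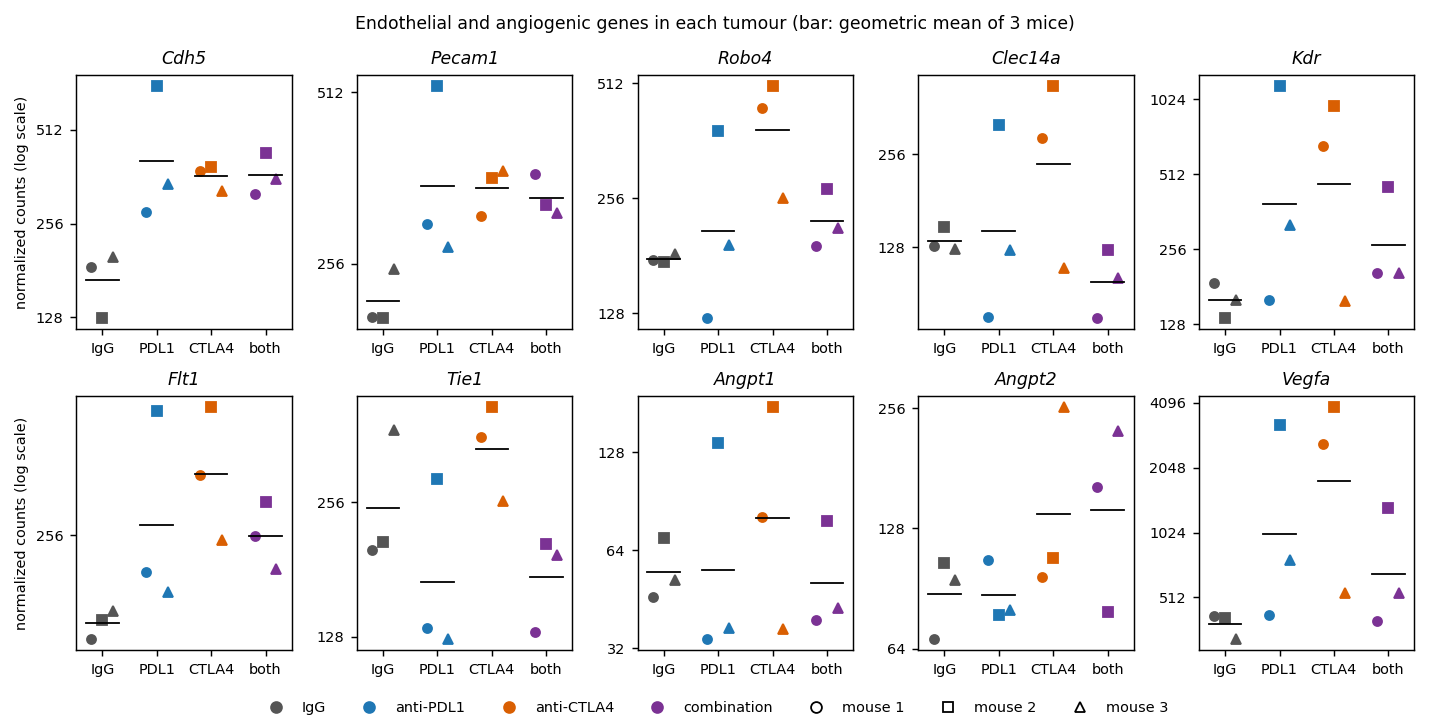
Normalized counts (log scale) of the 10 genes in each of the 12 tumours, by treatment group, with symbols for mouse number and a bar at the geometric mean of 3 mice. For Cdh5, Pecam1 and Flt1 every antibody-treated tumour lies above the 3 IgG tumours, whereas for Tie1, Angpt1, Angpt2 and Clec14a the groups overlap in most pairs.

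Cdh5 encodes VE-cadherin, the adhesion protein of endothelial junctions. Under IgG the 3 tumours read 186, 128 and 199.8 normalized counts of Cdh5. Under anti-PDL1 they read 279, 708 and 344, under anti-CTLA4 378, 388 and 327, and under the combination 319, 430.3 and 356. The lowest antibody-treated tumour thus lay above the highest IgG tumour, and all but anti-PDL1 mouse 2 of the antibody-treated tumours lay between 279 and 430.3. Mean Cdh5 was 171 ± 38.4 (SD, n = 3) under IgG, 444 ± 231 (SD, n = 3) under anti-PDL1, 364 ± 33.0 (SD, n = 3) under anti-CTLA4 and 369 ± 56.6 (SD, n = 3) under the combination.

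Pecam1 encodes CD31, an adhesion protein of endothelial cells that platelets and some leukocytes also carry. Its IgG values were 206, 206 and 251 normalized counts. Its values were 301, 525 and 274 under anti-PDL1, 310.2, 362 and 373 under anti-CTLA4, and 368, 324.5 and 314 under the combination. As for Cdh5, the IgG tumours did not overlap any antibody group, but the gap between the highest IgG and the lowest antibody-treated tumour was narrow. Mean Pecam1 was 221 ± 25.7 (SD, n = 3) under IgG and 335 ± 28.5 (SD, n = 3) under the combination.

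Robo4 encodes a roundabout receptor of endothelial cells that is known to stabilise vessels. The IgG tumours were nearly equal, with 177, 175 and 183 normalized counts of Robo4. Anti-PDL1 gave 125, 384.5 and 193, anti-CTLA4 443, 504 and 257, and the combination 192, 271 and 214. The anti-CTLA4 and combination tumours lay above the IgG tumours, and the anti-PDL1 tumours lay on both sides of them. Clec14a encodes a C-type lectin of tumour endothelium. Its values were 129, 149 and 126 under IgG, 76.2, 317 and 125 under anti-PDL1, 288, 425 and 109.5 under anti-CTLA4, and 75.6, 125.5 and 102 under the combination. All 3 combination tumours were below the IgG tumours in Clec14a, though only just at the nearest, 125.5 against 126, while the single antibody groups spread across them.

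Kdr, the main signalling receptor of Vegfa, read 188, 136 and 160.1 normalized counts under IgG. It read 159.6, 1154 and 321 under anti-PDL1, 661, 963 and 159 under anti-CTLA4, and 205, 454 and 205 under the combination. The high Kdr tumours were those 4 that stood apart, and anti-PDL1 mouse 1 and anti-CTLA4 mouse 3 lay within the IgG range. Flt1, the other receptor of Vegfa on endothelium, read 157, 171.5 and 179 under IgG, 215, 458 and 196 under anti-PDL1, 339, 467 and 249.9 under anti-CTLA4, and 255, 299 and 218 under the combination. Each antibody group lay wholly above the IgG tumours in Flt1, with the lowest antibody-treated value in anti-PDL1 mouse 3. Tie1 read 199.9, 208 and 371 under IgG, 134, 288 and 127 under anti-PDL1, 357, 417 and 257 under anti-CTLA4, and 131, 206 and 195 under the combination. Tie1, the co-receptor of the angiopoietin pathway, thus overlapped between IgG and every antibody group, and IgG mouse 3 had the second highest value of all 12 tumours.

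Vegfa varied most of the 10 genes, by 11.9-fold between its lowest and its highest tumour. It read 419.97, 411 and 329 normalized counts under IgG, 423, 3215 and 763 under anti-PDL1, 2639, 3906 and 536 under anti-CTLA4, and 398, 1330.3 and 536 under the combination. The 4 tumours that stood apart held its 4 highest values, and combination mouse 1 and anti-PDL1 mouse 1 were at the IgG level. Mean Vegfa was 387 ± 50.1 (SD, n = 3) under IgG and 2360.4 ± 1702 (SD, n = 3) under anti-CTLA4, so the spread within the antibody group was nearly as large as the difference.

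Angpt1 read 45.95, 69.7 and 51.9 normalized counts under IgG, 34.2, 137 and 36.9 under anti-PDL1, 80.9, 176 and 36.5 under anti-CTLA4, and 38.9, 78.9 and 42.4 under the combination. In each antibody group the tumours that stood apart lay above the IgG range and the others lay below it. Angpt2 read 67.7, 104.6 and 94.9 under IgG, 106, 77.7 and 79.9 under anti-PDL1, 96.7, 108 and 257 under anti-CTLA4, and 162, 78.9 and 224 under the combination. Its 3 highest values came from anti-CTLA4 mouse 3 and combination mice 1 and 3, which are tumours outside the 4 that stood apart.

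The combination was set against IgG to ask how both antibodies together altered the tumour. By limma with Benjamini-Hochberg adjustment over 770 genes, 0 of the 10 genes passed an adjusted p of 0.05, when 2.86% of all genes did. At an unadjusted p under 0.05, 2 of the 10 were counted, Cdh5 and Pecam1, against 15.5% of all genes. Cdh5 was higher by 1.12 on the log2 scale (SE 0.335, limma adjusted p = 0.139) in 3 of 3 combination tumours. For Pecam1 the difference was 0.60 (SE 0.245, limma adjusted p = 0.299). The median of the 10 log2 fold changes was 0.60, beside 0.03 over all genes. In 5 of the 10 genes, Cdh5, Pecam1, Kdr, Flt1 and Robo4, every combination tumour lay above every IgG tumour, which was so for 22.7% of all genes, and Clec14a lay wholly below, as did 13.2%. The fitted signs of Robo4 (0.32) and Angpt1 (-0.11) were not settled: Robo4 was negative when libraries were scaled to their median gene or quantile-normalized, and Angpt1 was positive with a common floor. Median scaling put the median of all genes in this comparison at -0.41.

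Without the 3 tumours with the highest hepatocyte scores, none of which belonged to the combination or IgG groups, the Cdh5 difference of 1.12 had an adjusted p of 0.0355 in limma and the Pecam1 difference of 0.60 one of 0.0462. Both values are unchanged by construction, and only the shared estimate of the spread differed. Leaving out anti-PDL1 mouse 2 alone gave Cdh5 an adjusted p of 0.0269. Combination mouse 2, which stood apart, held the highest Cdh5 of its group at 430.3, and the other combination tumours, with 319 and 356, also lay above the IgG tumours. Without it as well, the Cdh5 difference was 1.00 and did not pass (adjusted p = 0.0776 in limma).

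Anti-PDL1 alone against IgG gave 0 of the 10 genes past the adjusted threshold in limma, when 2.99% of all genes passed. Unadjusted, 2 of the 10 were counted, again Cdh5 and Pecam1, against 19% of all genes. Cdh5 was higher by 1.28 (SE 0.335, limma adjusted p = 0.082), the closest of any of the 10 to the threshold, in 3 of 3 tumours. Pecam1 was higher by 0.67 (SE 0.245, limma adjusted p = 0.180) in 3 of 3 tumours, and by 0.38 without anti-PDL1 mouse 2. The median log2 fold change was 0.45 beside 0.07 over all genes. Groups did not overlap for Cdh5, Pecam1, Flt1 and Vegfa, with the antibody tumours above in all 4 genes, as for 13% of all genes. Without anti-PDL1 mouse 1 the Cdh5 difference was 1.55 with a limma adjusted p of 0.0418. The Kdr difference of 1.28 and the Vegfa difference of 1.40 had 95% intervals from -0.54 to 3.10 and from -0.61 to 3.40, and anti-PDL1 mouse 2 carried most of both.

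Anti-CTLA4 alone against IgG also gave 0 of the 10 past the adjusted threshold in limma, when 2.6% of all genes passed. At an unadjusted p under 0.05, 5 of the 10 were counted, namely Cdh5, Pecam1, Flt1, Vegfa and Robo4, against 21.4% of all genes. All 10 fitted changes were above 0, as for 56.8% of all genes, from 0.44 for Tie1 to 2.20 for Vegfa. With median scaling, which put the median of all genes at -0.40, Tie1 and Angpt1 were below 0. Tie1 was also below 0 with quantile normalization. Robo4 was higher by 1.11 (SE 0.400, limma adjusted p = 0.193), Flt1 by 1.01 (SE 0.345, limma adjusted p = 0.179) and Cdh5 by 1.11 (SE 0.335, limma adjusted p = 0.151). Groups did not overlap for the same 5 genes, as for 19% of all genes. Vegfa was higher by 2.20 (SE 0.889, limma adjusted p = 0.219), with a 95% interval from 0.20 to 4.20, and its 3 tumours ranged from 536 to 3906. Without anti-PDL1 mouse 2, which widened the shared spread, Cdh5 (adjusted p = 0.0271), Pecam1 (adjusted p = 0.0454) and Flt1 (adjusted p = 0.0476) passed in this comparison in limma.

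**Figure D2:**
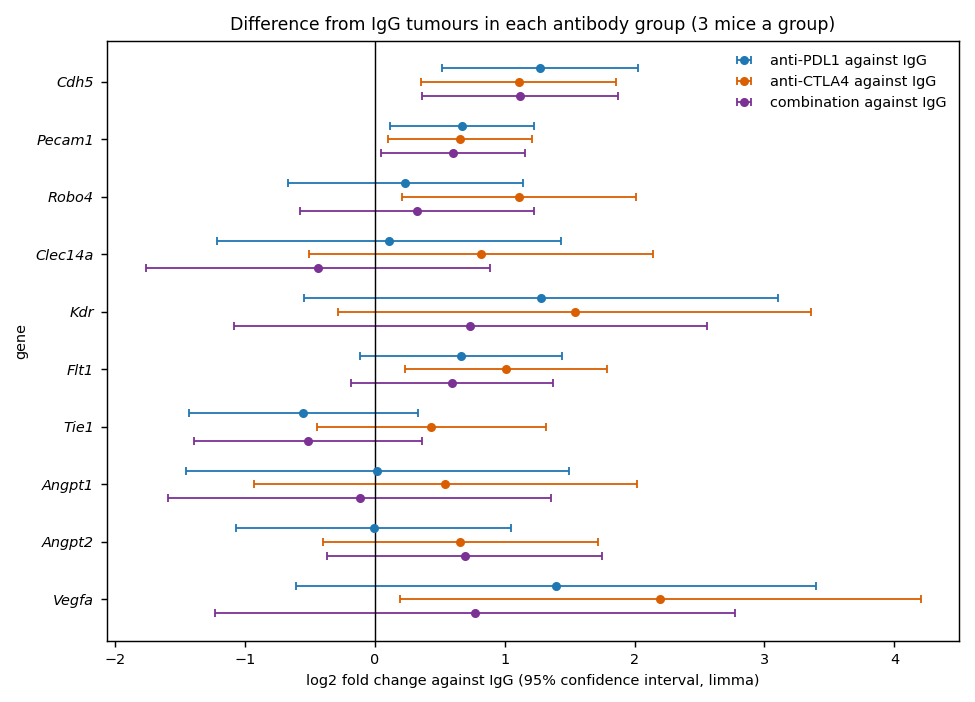
Log2 fold changes against IgG (points) with 95% confidence intervals from limma (bars) for the 10 genes in the 3 antibody groups, 3 mice a group. The intervals of Cdh5 and Pecam1 lie above 0 in all 3 comparisons before adjustment over the 770 genes, and those of Kdr, Vegfa and Angpt1 are the widest.

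The 3 comparisons share the same IgG tumours, so their likeness carries no separate weight. To use those tumours once, the mean of the 3 antibody groups was set against IgG in the same fit, a comparison added after the values had been seen. In limma 1 of the 10 genes passed, Cdh5, which rose by 1.17 (SE 0.273, adjusted p = 0.0441) in 9 of 9 antibody-treated tumours, when 4.94% of all genes passed in either direction and 0.909% as higher. Pecam1 was 0.64 higher (SE 0.200, adjusted p = 0.096) and Flt1 0.76 higher (SE 0.282, adjusted p = 0.145). With libraries scaled to their median gene these 2 differences were 0.14 and 0.25, and with quantile normalization 0.23 and 0.32. Median scaling also moved the median of all genes, to -0.39. Relative to that median Pecam1 and Flt1 were 0.54 and 0.65 as deposited and 0.53 and 0.64 after median scaling. Median scaling moves all genes of a library alike, so this near equality holds by construction. After quantile normalization they were 0.20 and 0.28 relative to the median. Cdh5, Pecam1 and Flt1 were also the genes counted at an unadjusted p under 0.05, against 23.2% of all genes. They are the 3 whose 9 antibody-treated tumours all exceeded the 3 IgG tumours, which 8.05% of all genes did. The Cdh5 call was lost when any 1 of 10 libraries was left out, that is each library other than anti-PDL1 mice 1 and 2, with adjusted p-values up to 0.199. Without the 4 tumours that stood apart Cdh5 was 0.94 higher (adjusted p = 0.0482). The call was kept in 10 of 25 alternatives, over which the difference ran from 0.66 to 1.29 and the adjusted p from 0.000673 to 0.199.

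Markers of other cell types were read alongside. Leukocyte and macrophage genes, 16 of 18 measured, had a mean score, in log2 units, of 7.45 to 7.56 in IgG tumours, 7.42 to 8.90 in anti-PDL1, 7.58 to 8.60 in anti-CTLA4 and 7.99 to 8.38 in combination tumours. In the mean of the 3 antibody groups, 2 of these 16 rose in limma, Ptprc, which encodes the leukocyte marker CD45, by 1.30 (adjusted p = 0.0441), and Cd84, by 0.91 (adjusted p = 0.0441). As higher, 0.909% of all genes passed in that comparison. Platelet markers, 2 of 6 measured (Pf4 and Itgb3), had no gene past the threshold in that comparison and none unadjusted, and their score was 5.55 to 6.21 in IgG tumours and 5.32 to 6.57 in the antibody-treated tumours. Fibroblast and mural cell markers, 5 of 16 measured, scored 6.50 to 6.73 under IgG and 6.75 to 7.32 in the antibody groups. In the mean of the 3 groups 3 of the 5 had a fitted change above 0, as 56.2% of all genes did. In limma 0 of the 5 passed and 2 were counted unadjusted, against 23.2% of all genes. These 2 were Thy1, a surface protein of fibroblasts and lymphocytes, at 1.26 (adjusted p = 0.062), and Col6a3, a collagen chain, at 0.61 (adjusted p = 0.142). None of the defining markers named here lay at 0, since the lowest listed value is the floor. The part of leukocytes, platelets or stroma in the Pecam1 and Cdh5 values was not tested.

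The single antibodies were compared with each other and with the combination to ask whether they differed. By limma 0 of the 10 genes passed in the combination against anti-PDL1, in the combination against anti-CTLA4 and in anti-PDL1 against anti-CTLA4, and 0% of all genes passed in each. Unadjusted, 0 of the 10 were counted in the first of these (0.649% of all genes) and only Tie1 in the other two, where 4.29% and 2.6% of all genes were counted. Tie1 was 0.95 lower on the log2 scale under the combination than under anti-CTLA4 (log2 difference -0.95, SE 0.390, limma adjusted p = 0.733), with 131 to 206 against 257 to 417 normalized counts and no overlap, a gap that 3.25% of all genes showed in that direction. Against anti-CTLA4 the anti-PDL1 tumours gave -0.99 for Tie1 (SE 0.390, limma adjusted p = 1), and anti-PDL1 mouse 2, with 288, lay among the anti-CTLA4 tumours. The 95% intervals of these differences had a median half-width of 0.98 over the 10 genes.

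The interaction asks whether both antibodies together differ from what adding their single log2 changes would give. It was below 0 for 9 of the 10 genes and 0.04 for Angpt2, when 40.5% of all genes were above 0. By limma 0 of the 10 passed (1.3% of all genes), and unadjusted only Cdh5 was counted (13.8% of all genes), with -1.27 (SE 0.473, adjusted p = 0.345). The Cdh5 differences from IgG behind it were 1.28 and 1.11 for the single antibodies and 1.12 for the combination. The signs of the interaction were not settled. With the hepatocyte score in the fit Angpt1 (0.56) and Tie1 (0.15) were above 0, while Angpt2 (-0.67) and the other members were below it. Median scaling put the median interaction of all genes at 0.42, from -0.18 as deposited. A test of any difference among the 4 groups passed 0 of the 10 genes in limma (1.95% of all genes), with Cdh5 again lowest at an adjusted p of 0.216, and 1 of the 10 was counted unadjusted (13.1% of all genes).

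The 4 tumours with high hepatocyte scores held the 4 highest values of 6 of the 10 genes, Cdh5, Kdr, Flt1, Angpt1, Vegfa and Robo4, which was so for 26.6% of all genes. They held 3 of the 4 highest of Tie1 and Clec14a, 2 of Pecam1 and 1 of Angpt2. In these 4, Vegfa ran from 1330.3 to 3906, against 398 to 763 in the other 5 antibody-treated tumours and 329 to 419.97 under IgG. Kdr ran from 454 to 1154, against 159 to 321 and 136 to 188. For Cdh5 the corresponding ranges were 378 to 708, 279 to 356 and 128 to 199.8. Cdh5, Pecam1 and Flt1 therefore lay above every IgG tumour in 5 of the 5 other antibody-treated tumours as well, and Vegfa and Robo4 in 4 of 5 and Kdr in 3 of 5. In those 5 tumours Angpt1 (34.2 to 42.4) and Clec14a (75.6 to 125.45) were below every IgG tumour in 5 of 5 and Tie1 in 4 of 5. For Clec14a the gap was slight, 125.45 in anti-PDL1 mouse 3 against 125.86 in IgG mouse 3. Angpt2 was above every IgG tumour in 4 of 5. How many of all genes showed such gaps in these 5 tumours was not counted, so this is a description with no test. In it the endothelial and angiogenic genes did not all lie on the same side of IgG.

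**Figure D3:**
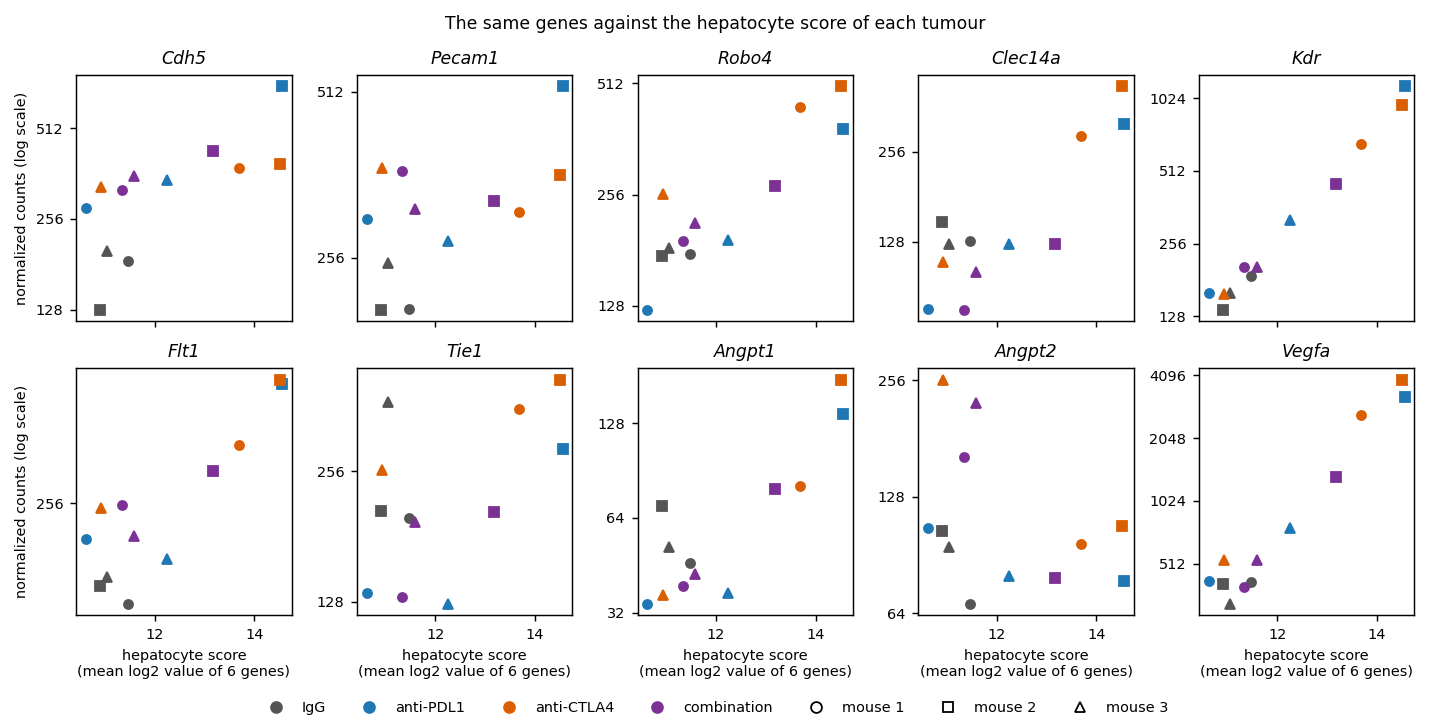
Normalized counts (log scale) of the 10 genes against the hepatocyte score (mean log2 value of 6 hepatocyte genes) of each tumour, coloured by group. Kdr and Vegfa rise with the score across the 4 tumours above 13, Pecam1 and Cdh5 separate IgG from antibody-treated tumours at low scores, and the high Angpt2 values lie at low scores.

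Within groups, 9 of the 10 genes had a slope on the hepatocyte score past the adjusted threshold in limma, 8 upward and Angpt2 downward, when 50.9% of all genes had one, 39.7% upward and 11.2% downward. The slope was 0.79 log2 units per unit of score for Vegfa (SE 0.0463, adjusted p = 5.09e-06), 0.72 for Kdr (SE 0.0278, adjusted p = 4.25e-07), 0.53 for Angpt1 and 0.50 for Clec14a. It was smaller for Robo4 (0.33), Flt1 (0.25), Tie1 (0.24) and Cdh5 (0.22), it was -0.30 for Angpt2 (adjusted p = 0.0266), and Pecam1 did not pass (0.08, adjusted p = 0.361). The median slope over all genes was 0.14. In the other 8 libraries, a smaller set with a narrower range of scores, 0 of the 10 passed in limma, when 0.779% of all genes did, and 3 were counted unadjusted (Kdr, Vegfa and Robo4, against 17.9% of all genes). The fitted slopes there were 0.62 for Kdr (adjusted p = 0.103), 0.52 for Vegfa, 0.39 for Clec14a, 0.35 for Robo4, 0.25 for Cdh5 and -0.31 for Angpt2, and those of Angpt1, Flt1, Tie1 and Pecam1 lay between -0.12 and -0.0342. Hepatocyte score and normalization factor ranked the same 4 tumours highest, and their separate parts in these values were not tested.

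With the hepatocyte score in the fit, the differences from IgG of Kdr and Vegfa in the combination were 0.10 and 0.07, where they had been 0.74 and 0.77. Cdh5 had a difference of 0.98 under anti-PDL1 (SE 0.234, adjusted p = 0.0458 in limma), one of 0.92 under the combination (SE 0.225, adjusted p = 0.0514) and one of 0.69 under anti-CTLA4 (adjusted p = 0.231), and 0.86 in the mean of the 3 groups (adjusted p = 0.0383). For Clec14a the combination difference was -0.44 on the log2 scale without the score (SE 0.588, limma adjusted p = 0.841). In the fit with the score it was -0.88 (SE 0.183, limma adjusted p = 0.0344). With the score included, 6.1% of all genes passed in the combination against IgG, 7.79% in anti-PDL1, 1.69% in anti-CTLA4 and 7.01% in the mean of the 3 groups. For Vegfa under anti-CTLA4 the difference was 0.70 in this fit (SE 0.179, adjusted p = 0.107).

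Ratios of 2 genes within a tumour do not depend on how that library was scaled, and 3 were tested with an exact permutation test over all 369600 assignments of 12 tumours to the 4 groups, adjusted over the 3. The ratio of Vegfa to its receptor Kdr was 2.24, 3.02 and 2.06 under IgG, 2.65, 2.79 and 2.38 under anti-PDL1, 3.99, 4.05 and 3.37 under anti-CTLA4, and 1.94, 2.93 and 2.61 under the combination. The 3 anti-CTLA4 tumours lay above all 9 others, including anti-CTLA4 mouse 3, whose Vegfa and Kdr were both low. The exact permutation p was 0.0327 and, adjusted over the 3 ratios, 0.0982, which did not pass. With 1 tumour left out the adjusted exact p ran from 0.0333, without IgG mouse 2, to 0.347, without anti-CTLA4 mouse 2. Without the 3 or the 4 tumours of highest hepatocyte score only anti-CTLA4 mouse 3 was left in its group, so no p is given. Its log2 ratio of 1.75 stood against means of at most 1.32 in the other groups.

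The ratio of Angpt2 to Angpt1, the opposing ligands of the Tek receptor, was 1.47, 1.50 and 1.83 under IgG, 3.12, 0.569 and 2.17 under anti-PDL1, 1.19, 0.612 and 7.05 under anti-CTLA4, and 4.17, 1.00 and 5.28 under the combination. The difference between groups did not pass (exact permutation p = 0.823, adjusted 0.823), and the 4 lowest ratios were those of the 4 tumours that stood apart. Among the other 8 tumours all 5 antibody-treated ones, at 2.17 to 7.05, exceeded the 3 IgG tumours, at 1.47 to 1.83. That is a description, and nothing is drawn from the exact permutation test that was run without the 4. They were set aside by a score with which Angpt1 itself moved, the pattern was seen first, and anti-CTLA4 kept only mouse 3. The ratio of Flt1 to Kdr ran from 0.397 to 1.57 over the 12 tumours and did not separate the groups (exact permutation p = 0.647, adjusted 0.823).

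**Figure D4:**
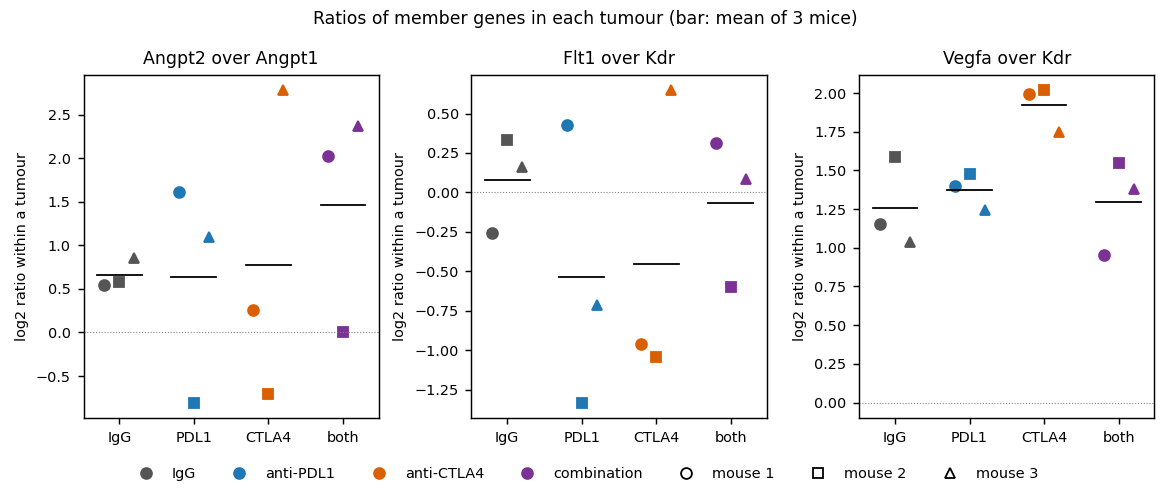
Log2 ratios of Angpt2 to Angpt1, Flt1 to Kdr and Vegfa to Kdr within each tumour by group, with a bar at the mean of 3 mice. The 3 anti-CTLA4 tumours have the highest Vegfa to Kdr ratios, from 1.75 to 2.02 against at most 1.59 elsewhere, and the Angpt2 to Angpt1 ratio spreads widest within the antibody groups.

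As a description over tumours that share a library, its scaling and the 4 that stood apart, Kdr and Vegfa moved most alike of the 45 pairs (Pearson r = 0.97 over 12 libraries, 0.74 over the 8 others). Cdh5 and Pecam1 had r = 0.90 over 12 libraries and 0.84 over 8. Angpt1 and Clec14a had 0.91 and 0.70. Over the 8 libraries Angpt1 ran opposite to Cdh5 (-0.88) where over 12 it had not (0.40), and Flt1 tracked Pecam1 (0.98). Angpt2 was the gene least like the rest over 12 libraries, with r from -0.38 to 0.26 against the other 9. Over the 8 libraries this did not hold for all of them. There Angpt2 had r = 0.81 with Flt1, 0.78 with Pecam1 and 0.61 with Robo4, but -0.18 with Kdr and -0.40 with Clec14a.

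Of 509 other genes above the floor in all libraries, the 3 most like the mean of the 7 endothelial genes were Nfkb1, a subunit of NF-kB (r = 0.98 over 12 libraries, 0.79 over the 8), Tnfrsf1a, a receptor of tumour necrosis factor (0.98 and 0.71), and Cxcl11, a chemokine induced by interferon (0.98 and 0.61). The median of these 509 genes had r = 0.71. The 3 most like Vegfa were Myct1 (0.99 and 0.83), Srebf1, a regulator of lipid synthesis (0.98 and 0.75), and Mtor, a growth kinase (0.98 and 0.70), beside a median of 0.70 over genes. Myct1 read 75.0, 74.2 and 78.4 normalized counts under IgG and 250, 381 and 96.4 under anti-CTLA4, with the same 2 anti-CTLA4 mice high as for Vegfa.

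Few other endothelial markers were on the panel. Of 21 listed, 2 were measured, Mmrn2, an extracellular protein that binds Clec14a, and Palmd, and 0 of the 2 passed in any comparison with IgG in limma. Unadjusted, 1 of the 2 was counted under anti-PDL1 and 1 under anti-CTLA4, against 19% and 21.4% of all genes. Mmrn2 read 71.7, 81.5 and 57.4 under IgG, 97.2, 269 and 122 under anti-PDL1, 151, 213 and 101 under anti-CTLA4, and 114, 145 and 115 under the combination. All 9 antibody-treated tumours were above the IgG tumours in Mmrn2, as for 8.05% of all genes, with 0.99 in the mean of the 3 groups (SE 0.333, limma adjusted p = 0.116). Palmd followed the 4 tumours that stood apart, with 276 to 777 in them and 49.7 to 162 in the other 8, a separation that 26.6% of all genes showed. Of 9 sinusoidal and lymphatic markers, 2 were measured. Cd36, a fatty acid receptor that macrophages and hepatocytes also carry, read 249.5 to 279.7 under IgG and 330.5 to 988 in the 9 antibody-treated tumours, with 1.04 in the mean of the 3 groups (SE 0.257, limma adjusted p = 0.0512). Such a gap was seen for 8.05% of all genes. Fcgr2b, an Fc receptor of sinusoidal endothelium and B cells, overlapped between groups and reached 4929 in anti-CTLA4 mouse 2.

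Of 36 other genes of vessel growth, 17 were measured, and 0 passed in the 3 comparisons with IgG in limma, with median log2 fold changes of -0.04 for the combination, 0.07 for anti-PDL1 and 0.08 for anti-CTLA4. Unadjusted, 1, 1 and 3 of the 17 were counted in that order, against 15.5%, 19% and 21.4% of all genes. Dll4, a Notch ligand that Vegfa signalling induces in sprouting endothelium, read 129, 168 and 162 under IgG, 153, 239.5 and 164 under anti-PDL1, 351, 328 and 265 under anti-CTLA4, and 167, 219 and 198 under the combination. The anti-CTLA4 tumours lay above all 9 others, with a difference from IgG of 1.03 (SE 0.235, limma adjusted p = 0.0537). How many of all genes showed that gap was not counted, and 19% had every anti-CTLA4 tumour above every IgG tumour. Pdgfa, a growth factor for stromal cells, was listed at 27.4, 23.1 and 34.2 under IgG and at the floor of 20 in all 9 antibody-treated tumours. In 4 of those 9 libraries a listed 20 can stand for up to 35.9 to 52.5 normalized counts, above every IgG value, so no size or direction is given for Pdgfa. Its limma adjusted p in the mean of the 3 groups was 0.0168 as deposited, the lowest of the list and the 1 under the threshold, and 1 with a common floor.

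Of 27 hypoxia genes, 18 were measured and 0 passed in the 3 comparisons with IgG in limma. Their medians were 0.11, 0.02 and -0.03 for the combination, anti-PDL1 and anti-CTLA4. Unadjusted, 0, 1 and 1 of the 18 were counted in that order, against 15.5%, 19% and 21.4% of all genes. Hif1a, the oxygen-regulated factor that drives Vegfa, lay between 304 and 369 in IgG tumours, 252 and 279 in anti-PDL1, 267 and 430.5 in anti-CTLA4, and 247 and 288 in combination tumours, and its combination difference was -0.39 (SE 0.196, limma adjusted p = 0.385). Pfkfb3, a regulator of glycolysis that low oxygen induces, gave 0.52 (adjusted p = 0.524). The hypoxia score, the mean log2 value of the 18 genes, ran from 9.48 to 9.63 under IgG and from 9.48 to 9.91 in the antibody-treated tumours.

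Of 10 endothelial adhesion genes, 5 were measured and 0 passed in the 3 comparisons with IgG in limma. Unadjusted, 2, 2 and 3 of the 5 were counted under the combination, anti-PDL1 and anti-CTLA4, against 15.5%, 19% and 21.4% of all genes. In the mean of the 3 groups 2 were under the threshold in limma as deposited, when 4.94% of all genes were. These were the selectins that capture leukocytes on activated endothelium, Sele (adjusted p = 0.0300, and 1 with a common floor) and Selp (adjusted p = 0.0421, and 0.430 with a common floor). Sele was listed at 43.5, 45.6 and 25.4 under IgG and at 20 to 25.7 in the 9 antibody-treated tumours. Selp was listed at 49.2, 66.4 and 45.3 under IgG and at 20 to 44.8 in the others. The limit on listed values was narrower here than for Pdgfa. For Sele, 1 library at the floor had a detection limit, 52.5 normalized counts, above the highest IgG value of 45.6. For Selp 0 had one above the highest IgG value of 66.4. Neither gene passed with a common floor, so no size or direction is drawn for either.

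Scaling each library to its median gene moved the median of all genes from 0.03, 0.07 and 0.17 to -0.41, -0.42 and -0.40 in the combination, anti-PDL1 and anti-CTLA4 against IgG. Relative to that median the Cdh5 difference in the mean of the 3 groups was 1.06 as deposited, 1.05 after median scaling and 0.74 after quantile normalization. The values as deposited and after median scaling are nearly equal by construction, since median scaling moves all genes of a library alike. Housekeeping genes, 18 of 27 measured, had a score of 9.07 to 9.19 over the 12 libraries and 0 past the threshold in the 3 comparisons with IgG in limma. Unadjusted, 2, 4 and 1 of the 18 were counted in the combination, anti-PDL1 and anti-CTLA4, against 15.5%, 19% and 21.4% of all genes. In the combination against IgG the leading housekeeping genes were Abcf1 with 0.80 (adjusted p = 0.095) and Ercc3 with 0.57 (adjusted p = 0.235). Of the 12 proliferation genes 0 passed in limma in the combination against IgG, and 1 was counted unadjusted, against 15.5% of all genes. There 7 of the 12 were above 0, as for 53.9% of all genes, and the median was 0.16. The leading 2 were Tyms at -0.73 (adjusted p = 0.314) and Ccnb1 at -1.28 (adjusted p = 0.528). Of the 6 hepatocyte genes 0 passed and 0 were counted unadjusted in limma, with Tdo2, a tryptophan-degrading enzyme, at 1.84 (adjusted p = 0.703).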

How the data were processed

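The authors deposited signal values, normalized barcode counts of the nCounter panel for 770 genes and 14 control probes, with 1 factor per library and low values listed at a floor of 20; how they were normalized, and with which software, is not stated per the labels. The factors were recovered from the values, whole multiples of 1 step within 0.0075 for 100% of genes checked, and gave the raw totals and the detection limits, 20 to 52.5 normalized counts. The log2 of each value plus 1 went into limma 3.58.1 (R 4.3.3) with group means, a trend of variance on level, 8 residual degrees of freedom, two-sided tests and Benjamini-Hochberg adjustment over 770 genes at 0.05. Ratios were tested with an exact permutation test of the spread between group means in Python 3.11.15. Both were tested on simulated data. Symbols were matched to the RefSeq table of GRCm38.p6, where 764 of 770 were current symbols, all 10 members among them.

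The 10 genes, the gene lists and the tests were chosen with earlier results of these data known. From each other list the text names genes past the threshold and the 2 with the smallest p in the combination against IgG, and the 3 genes most like each pattern. A gene that this rule would name is not reported here. Scores average the log2 values of a list's measured genes. Alternatives were other scalings, pseudocount 10, filters, a common floor, limma without trend or with sample quality weights, a block on replicate number, a fit of the compared groups alone, each library left out, the 3 or 4 tumours of highest hepatocyte score left out, that score as a covariate, and subtraction of negative probes. Leaving out 4 tumours, the subtraction, the mean of the 3 antibody groups and the slope on the score were chosen after seeing the data. Replicate numbers name mice and were not treated as pairs, and the labels state no shared batch. Of 18 same-numbered pairs of libraries, 11 had deviations correlated above 0.1 (median 0.25, range -0.61 to 0.75). Of 36 pairs with different numbers, 15 did (median -0.08, range -0.85 to 0.84). Same-numbered libraries thus leaned towards deviating alike, and whether they shared a batch cannot be told.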

Additional observations from a re-analysis of the deposited data

Results flagged for a closer look

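For Vegfa and Flt1 every anti-PDL1 tumour lay above the IgG mean while every combination tumour lay below the anti-CTLA4 mean, and neither difference passed the test of the difference itself. The fitted effects of anti-PDL1 without and with anti-CTLA4 had opposite signs for 8 of the 10 genes, as for 58.1% of all genes. Vegfa was 1.40 higher on the log2 scale under anti-PDL1 than under IgG and -1.43 under the combination relative to anti-CTLA4, an interaction of -2.82 (limma adjusted p = 0.353). Flt1 gave 0.66 and -0.42 in the same contrasts, an interaction of -1.08 (limma adjusted p = 0.353). The anti-CTLA4 group holds 2, and the anti-PDL1 and combination groups 1 each, of the 4 tumours with high hepatocyte scores, and with the hepatocyte score in the fit the interaction was -0.98 for Vegfa (SE 0.245, limma adjusted p = 0.162) and -0.50 for Flt1 (limma adjusted p = 0.559).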

How the results depend on the processing

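Over the planned comparisons, each with 0 of 10 genes past the threshold, most alternatives left the count at 0. Sample quality weights, whose estimation stopped before it converged, gave 4 genes in the combination, 5 in anti-PDL1 and 7 in anti-CTLA4 against IgG, 1 in the combination against anti-PDL1, 6 in each of the combination against anti-CTLA4, anti-PDL1 against anti-CTLA4, the interaction and the mean of the 3 groups, and 10 for any difference. They called 506 of the 770 genes for any difference, so these counts say little about the 10. Leaving out 1 library gave 0 to 1 in the combination, 0 to 1 in anti-PDL1 and 0 to 3 in anti-CTLA4 against IgG. Without the 3 tumours of highest hepatocyte score the combination gave 2 (Cdh5 and Pecam1), and with that score as a covariate the combination gave 1 (Clec14a) and anti-PDL1 gave 1 (Cdh5).

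For the mean of the 3 groups, with 1 gene past the threshold, the count was 0 with median scaling, a filter at 50, a common floor and negative probes subtracted, 0 to 2 with 1 library left out, and 2 without the 3 or the 4 tumours of highest score. With the replicate number as a block the pairing gave Cdh5 an adjusted p of 0.0583 and a count of 0; the block changed no count in the planned comparisons, and 6 of 12 libraries correlated best with their own number. The range of group means of the Angpt2 to Angpt1 ratio was 2.12 without the 4 tumours, from which nothing is drawn because the pattern was seen first, and that of the Vegfa to Kdr ratio ran from 0.61 to 0.82 with 1 library left out, past it without IgG mouse 2; the block gave this ratio an adjusted exact p of 0.141.

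In the 3 comparisons with IgG, signs turned only for differences that had not passed, and the cause was not tested. With median scaling these were Robo4 in the combination (-0.13) and anti-PDL1 (-0.25), Clec14a in anti-PDL1 (-0.38), Tie1 in anti-CTLA4 (-0.14) and Angpt1 in anti-PDL1 (-0.46) and anti-CTLA4 (-0.0236). With quantile normalization they were Robo4 in the combination (-0.11) and anti-PDL1 (-0.16), Clec14a in anti-PDL1 (-0.27) and Tie1 in anti-CTLA4 (-0.0369). Median scaling put the median of all genes at -0.41, -0.42 and -0.40 in the combination, anti-PDL1 and anti-CTLA4. Relative to that median Robo4 in the combination was 0.29 as deposited and 0.28 after median scaling. Tie1 in anti-CTLA4 was 0.27 both times, and median scaling leaves such relative values nearly unchanged by construction. After quantile normalization the same 2 were -0.09 and -0.08. A common floor gave Angpt1 0.0586 in the combination, and subtracted negative probes gave it -0.18 in anti-PDL1. Quality weights turned Angpt1 (-0.43), Angpt2 (0.0654) and Clec14a (-0.0912) in anti-PDL1. Without the 3 or the 4 tumours of highest score, anti-PDL1 gave Angpt1 -0.62, Angpt2 0.0733, Robo4 -0.197 and Clec14a -0.453, and anti-CTLA4 gave Kdr -0.00723, Angpt1 -0.58 and Clec14a -0.29. With the score as a covariate, anti-PDL1 gave Angpt1 -0.69, Angpt2 0.40, Robo4 -0.20 and Clec14a -0.55, and anti-CTLA4 gave Tie1 -0.0114, Angpt1 -0.46 and Clec14a -0.12. With 1 library left out, Angpt1 ran from -0.43 to 0.0729 in the combination, from -0.62 to 0.37 in anti-PDL1 and from -0.0146 to 1.10 in anti-CTLA4, and in anti-PDL1 Angpt2 ran from -0.19 to 0.12, Robo4 from -0.20 to 0.61 and Clec14a from -0.45 to 0.57. With 3 mice a group, and 1 left in a group under some of these settings, a lone tumour was assumed to vary like the other groups. Signal over the detection limit, up to 52.5 normalized counts, limits Angpt1 most.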
